A study of Mus musculus with 17 samples.

Results

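The cytosolic ribosomal protein genes were taken by symbol: rows named Rps or Rpl with a number and at most a short suffix, the 3 stalk genes Rplp0, Rplp1 and Rplp2, and Rpsa. Rows named as pseudogenes and the Rps6k kinases were left out. This gave 85 of the 25239 genes in each of the 3 deposited count tables, 33 of the small subunit and 52 of the large subunit and its stalk. Of the 85, 8 are paralogs of other members (Rpl3l, Rpl7l1, Rpl10l, Rpl22l1, Rpl32l, Rpl39l, Rps4l and Rps27l) and 77 are the ordinary genes. They lie on 19 chromosomes, 4 of them on X, and their lengths in the tables run from 390 bases (Rps29) to 5134 bases (Rps15a), with a median of 740 bases against 2260 for all genes.

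All 17 libraries came from the brain of mice of the DAT-cre line, in which the dopamine transporter gene drives Cre recombinase. They cover the orbitofrontal (OFC) and the medial prefrontal (mPFC) parts of the cortex. In oDASS, optogenetic dopamine neuron self-stimulation, a mouse works for light that activates its dopamine neurons. Perseverers are the mice that go on when the stimulation is punished, and renouncers the mice that stop. The 6 groups were OFC brain tissue imprints taken before oDASS from later renouncers (3 libraries) and later perseverers (2 libraries), OFC dissections after oDASS from renouncers and perseverers (3 each), and mPFC dissections after oDASS from renouncers and perseverers (3 each). The comparisons ask whether these genes differ between the phenotypes in each kind of tissue, between the regions, and between imprint and dissection. The age of the mice is not given in the sources used here. The labels do not say which libraries share a mouse. Every imprint was taken before oDASS and every dissection after it, so stage and way of collection cannot be told apart.

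Library totals ran from 8960549 to 10662666 counts in the imprints and from 12392731 to 20945108 in the dissections. Haemoglobin genes held 29.7% of the counts in renouncer imprint 1 and 85.4% to 90.7% in the other imprints, against 0.0253% to 0.0787% in the dissections. The members together received 4296 to 30390 counts in an imprint and 53288 to 122595 in a dissection, and the median member had 10 to 135 counts in an imprint and 284 to 648 in a dissection. Of the 85 members, 73 to 83 had a count in an imprint and 82 to 84 in a dissection. After the low-count filter 81 members could be tested in the dissections and in the comparison of imprints with dissections. In the imprints alone 60 could be tested.

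Ribosomal proteins build the small and large subunits of the ribosome around ribosomal RNA, one copy of nearly every protein in each ribosome, and neurons need ribosomes in the cell body as well as along dendrites. Their mRNAs are short and abundant and begin with a C followed by a run of pyrimidines, the terminal oligopyrimidine (TOP) tract. Through this tract mTORC1 and LARP1 set how strongly the mRNAs are translated. The family is also known for a large number of processed pseudogenes, copies of the spliced mRNA inserted elsewhere in the genome.

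Because reads from such copies can match several places, the transcripts of all 85 members were compared with all other genes in the GENCODE M21 annotation of GRCm38. A member had a median of 9 other genes that shared at least 1 exact 50-base word with it. For 25 members there were at most 5 such genes (few copies) and for 60 there were more (many copies). These labels count any gene that shares a word, not only pseudogenes. Rpl7l1 shared words with 252 genes, 3 of them pseudogenes, and Rps16 with 58, 6 of them pseudogenes. Only 18.3% of the words of Rpl24 and 26.3% of those of Rpl10 were found in no other gene. The stretches below show how close such copies are. They are 60 bases of Rpl24 (chr16:55966275-55971435, plus strand) from coding bases 283 to 342 with the same stretch of the processed pseudogene Gm9385 (chr9:116040593-116041064, minus strand), followed by the first 60 coding bases of Rpl10 (chrX:74270812-74273135, plus strand) with those of Rpl10-ps1 (chr2:105554201-105554845, minus strand). The capital marks the single base that differs.
Rpl24: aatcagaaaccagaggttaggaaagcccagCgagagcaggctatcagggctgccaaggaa
Gm9385: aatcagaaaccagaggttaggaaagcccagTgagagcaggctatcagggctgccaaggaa
Rpl10: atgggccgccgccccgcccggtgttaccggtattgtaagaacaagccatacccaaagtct
Rpl10-ps1: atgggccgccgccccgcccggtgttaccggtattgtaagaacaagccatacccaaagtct
Over 471 aligned bases Rpl24 and Gm9385 differed at 1, and over 645 aligned bases Rpl10 and Rpl10-ps1 differed at 0. Rpl28 and its copy Rpl28-ps1 differed at 0 of 414. How reads that match several genes were counted is not given in the sources used here.

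Promoter sequences (250 bases before to 50 after the annotated start, RefSeq, GRCm38.p6) were found for 64 of the 85 members. A C followed by at least 4 pyrimidines stood exactly at an annotated start in 14 of them (21.9%), against 3.01% of 27025 genes. The windows below show this tract, from 30 bases before to 15 bases from the start, with the pyrimidine run from the first transcribed base in capitals. They are the 4 members with the highest and the 2 with the lowest level per kilobase among the ordinary genes of the 14.
Rps21, chr2:180257349-180257393, plus strand: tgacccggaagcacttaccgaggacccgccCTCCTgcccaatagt
Rplp2, chr7:141447621-141447665, plus strand: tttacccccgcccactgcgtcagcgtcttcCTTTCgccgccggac
Rpl38, chr11:114668550-114668594, plus strand: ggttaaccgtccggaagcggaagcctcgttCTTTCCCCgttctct
Rpl35a, chr16:33056452-33056496, plus strand: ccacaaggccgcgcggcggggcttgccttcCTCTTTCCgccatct
Rps6, chr4:86857353-86857397, minus strand: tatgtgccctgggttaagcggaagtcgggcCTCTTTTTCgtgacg
Rpl28, chr7:4792935-4792979, plus strand: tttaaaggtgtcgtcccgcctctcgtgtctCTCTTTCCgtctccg
Of 2 other motifs searched on both strands over the whole promoter, CCGGAAG, the core bound by ETS factors, was in 26 of the 64 members (40.6%) and in 9.93% of all genes. TATAAA was in 8 (12.5%) and in 15.7% of all genes. A match describes the letters in the window and not a bound site.

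Levels are compared between genes as CPM, the library's counts rescaled to a common total, divided by the table length in kilobases (CPM per kb), as mean ± SD over the 12 dissections. The 77 ordinary genes ran from 1.71 to 653 CPM per kb, a 382-fold range, with a median of 26.2. Small-subunit genes had a median of 31.3 (31 genes) and large-subunit and stalk genes one of 25.2 (46 genes). The ordinary members therefore stood far from a common level, although their proteins are present in nearly equal number in a ribosome.

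The highest level was that of Rps14, a small-subunit protein at the platform, with 653 ± 254 CPM per kb (373 to 1100 over the 12 dissections). Rpl41, the smallest of the ribosomal proteins, had 430 ± 160, Rplp1, one of the acidic stalk proteins, 363 ± 92.2, and Rpl32 344 ± 120. Each of these neighbours in the order lay within 1 SD of the next. At the other end stood Rpl24 with 1.71 ± 0.531, Rpl10, which completes the large subunit late in assembly, with 1.87 ± 0.436, Rpl28 with 2.19 ± 0.667, Rpl21 with 2.33 ± 0.459 and Rpl27 with 2.89 ± 0.429. These 5 also overlapped their neighbours within 1 SD. These 4 and the 5 lowest did not overlap in any dissection.

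Among the members with a known special role, the stalk proteins, which recruit translation factors to the ribosome, were all high: Rplp0 ran from 82.8 to 153 CPM per kb over the 12 dissections and Rplp2 had 183 ± 35.7, beside Rplp1 above. Rps6, the target of the S6 kinases, had 6.15 ± 1.2. Rpsa, also known as the laminin receptor, had 5.71 ± 1.53. Rpl5 and Rpl11, whose proteins form a complex with a small ribosomal RNA that binds Mdm2 when ribosome assembly is disturbed, had 9.31 ± 1.74 and 2.9 ± 0.707. Rps27a, made as a fusion with ubiquitin, had 6.58 ± 1.78.

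The order of levels went with the number of other genes sharing a word. Few-copy ordinary genes (19) had a median of 183 CPM per kb and many-copy genes (58) one of 18.0. Among the 10 highest members the median number of other genes sharing a word was 3 (0 to 10), and among the 10 lowest it was 12.5 (4 to 82). Across the 77 genes Spearman's correlation of the level was -0.537 with the number of other genes sharing a word and -0.145 with length. Genes are not independent replicates, so these are descriptions. The 2 ranges overlapped: Rpl28, among the lowest, shared words with 4 other genes, and Rpl32, among the highest, with 9. The part of read matching in these levels was not tested.

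**Figure D1:**
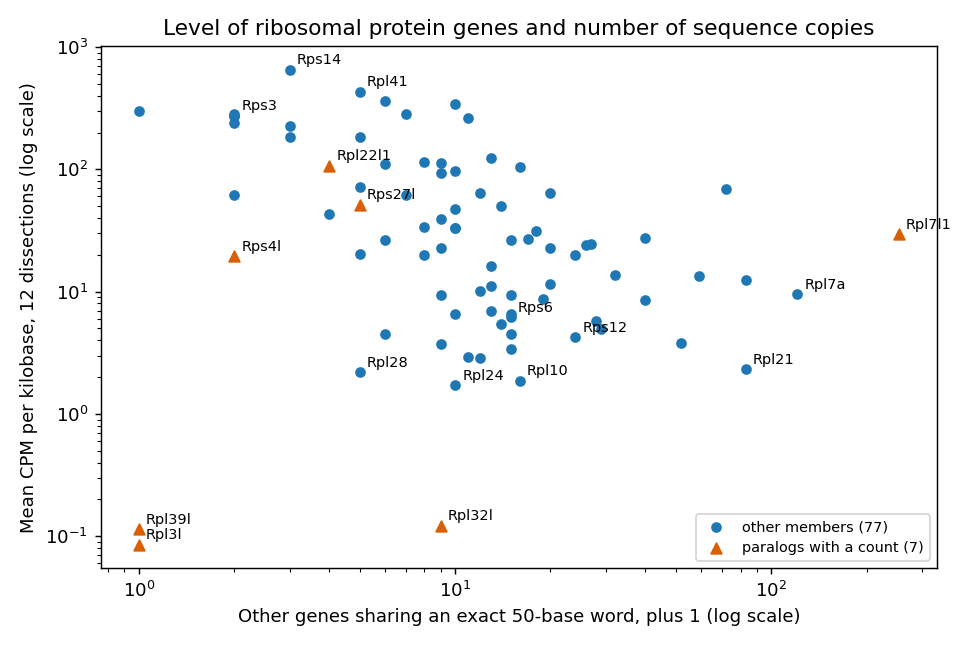
Mean CPM per kilobase over the 12 dissections (vertical, log scale) against the number of other genes sharing an exact 50-base word, plus 1 (horizontal, log scale). Each point is 1 member with a count, circles the 77 ordinary genes and triangles the 7 paralogs with a count. Few-copy ordinary genes had a median of 183 and many-copy genes one of 18.0, with wide overlap.

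The order was nearly the same in the imprints: Spearman's correlation across the 77 genes between mean level in the dissections and mean level in the imprints, the latter scaled to counts outside haemoglobin, was 0.977. Both kinds of library share gene lengths and the unknown counting of shared reads.

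The paralogs were of 2 kinds. Rpl22l1, a paralog of the large-subunit protein Rpl22, was above its parent in every dissection: 107 ± 33.2 against 20.3 ± 5.07 CPM per kb, a ratio of 4.27 at the lowest, 5.01 at the median and 6.39 at the highest. Rps27l stood above Rps27 by 4.42 to 11.5 times (median 7.05, levels of 51.5 ± 18.9 and 6.59 ± 2.25). Rps4l, listed by RefSeq as a transcribed pseudogene, stood above the X-linked Rps4x by 1.24 to 2.7 times (19.6 ± 3.87 and 10.2 ± 1.34). Rpl7l1, a homologue of Rpl7 that works in ribosome assembly, stood below it at 0.481 to 0.794 of its level (29.5 ± 2.88 and 50.6 ± 9.48). In counts over the 12 dissections Rpl22l1 had 10974 and Rpl22 9419, with lengths of 556 and 2497 bases. Rpl7l1 had more counts than Rpl7 (14451 against 8763, lengths of 2606 and 933 bases). Words found in no other gene were 83.8% in Rps27l and 53.8% in Rps27, and 85.1% in Rps4l and 27.8% in Rps4x. They were 48.6% in Rpl22l1 and 94.8% in Rpl22, and 92.6% in Rpl7l1 and 50.7% in Rpl7. The part of length or read matching in these ratios was not tested.

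The remaining 4 were near or at 0 in the dissections. Rpl3l, known from heart and skeletal muscle, received 27 counts over the 12 dissections and none in 5 of them, against 6132 for Rpl3. Rpl39l, known from testis, received 17 counts against 7438 for Rpl39, and Rpl32l received 14 against 31893 for Rpl32. Rpl10l, a testis gene that stands in for the X-linked Rpl10 during meiosis, had 0 counts in all 17 libraries.

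In the imprints the ratio of Rpl22l1 to Rpl22 was lower than in any dissection, 1.1 at the lowest, 1.56 at the median and 2.76 at the highest of 5 libraries. The ratio of Rpl7l1 to Rpl7 was also below every dissection, at 0.254 to 0.406. The ratio of Rps4l to Rps4x ran from 0 to 4.63 with a median of 0.443, so at the median Rps4l was not above Rps4x. Over all imprints Rps4l had 81 counts and Rps4x 120. Rps27l stood 10.5 to 15.2 times above Rps27 in the 4 imprints in which Rps27 had a count, but that gene had only 27 counts over all imprints. These ratios are descriptions with no test.

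The share of all counts that fell on the 85 members varied more between libraries of 1 group than between groups of dissections. In OFC dissections it was 0.349%, 0.583% and 0.69% in renouncers 1 to 3 and 0.418%, 0.375% and 0.561% in perseverers 1 to 3. Means were 0.541% ± 0.174 and 0.451% ± 0.0974 (SD, n = 3 each). In mPFC dissections it was 0.483%, 0.446% and 0.73% in renouncers 1 to 3 and 0.425%, 0.39% and 0.685% in perseverers 1 to 3, with means of 0.553% ± 0.154 and 0.5% ± 0.161. The phenotypes overlapped in both regions, and the regions overlapped as well. No p is given for this summed value.

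In the imprints the share of all counts was 0.326%, 0.0447% and 0.0758% in renouncers 1 to 3 and 0.11% and 0.0434% in perseverers 1 and 2. The library with the least haemoglobin, renouncer 1, was the highest. Of the counts outside the haemoglobin genes, the members held 0.464%, 0.479% and 0.734% in the renouncers and 0.755% and 0.438% in the perseverers, within or close to the range of the dissections. Exact binomial 95% intervals of these shares were narrow, for instance 0.425% to 0.451% for perseverer imprint 2. They cover counting error only, since reads without molecular identifiers are not independent molecules.

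**Figure D2:**
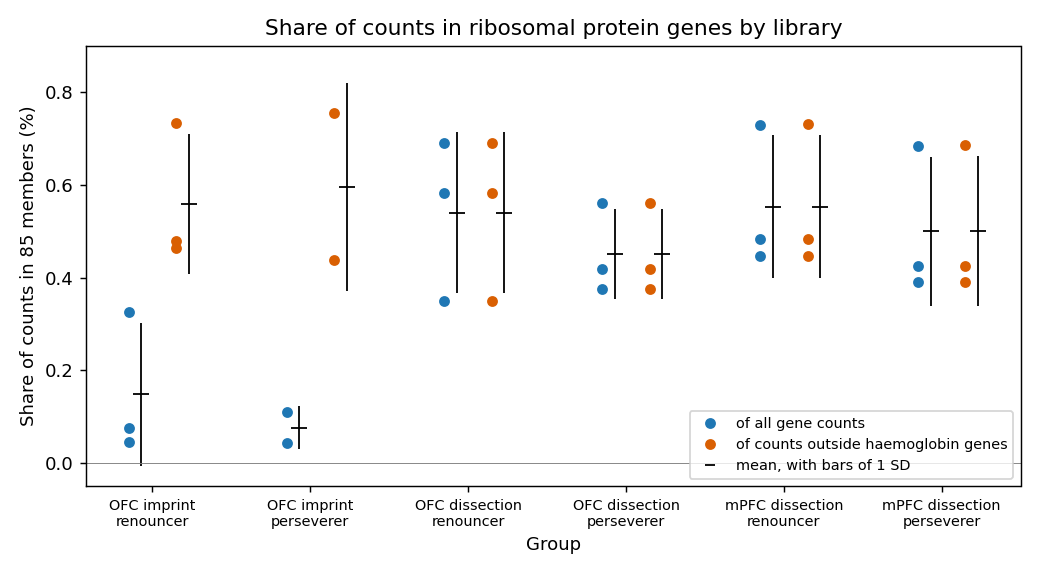
Share of counts on the 85 members in percent (vertical) for each library in the 6 groups (horizontal), of all counts and of counts outside haemoglobin, with the group mean and bars of 1 SD. The imprints other than renouncer 1 lie at 0.0434% to 0.11% of all counts but at 0.438% to 0.755% outside haemoglobin, and the phenotypes overlap within each kind of tissue.

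The values of the members moved together from library to library. Each member's deviation from its mean log2 CPM over the 12 dissections was taken, and the median over 81 members found for each library. In the OFC this median was -0.529, 0.194 and 0.437 in renouncers 1 to 3 and -0.225, -0.38 and 0.273 in perseverers 1 to 3. In the mPFC it was -0.038, -0.117 and 0.469 in renouncers 1 to 3 and -0.233, -0.377 and 0.514 in perseverers 1 to 3. Both phenotypes thus held libraries at the top and at the bottom. Within the OFC, 67 of 81 members were highest in renouncer 3 and 61 were lowest in renouncer 1. Within the mPFC, 44 were highest in perseverer 3, 34 in renouncer 3, and 50 were lowest in perseverer 2.

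Other short genes moved with them. Taken were the 431 other genes of 575 to 1063 bases, the middle length range of the members, with a mean log2 CPM above 4. The 81 members were not filtered by this level. In the same libraries the median deviation of the 431 genes was -0.239, 0.232, 0.373, -0.1, -0.27 and 0.155 in the OFC. In the mPFC it was -0.017, -0.037, 0.283, -0.253, -0.341 and 0.208, in the same order of libraries. It had the same sign as the member median in all 12 libraries. Medians of 7836 longer genes above the same level stayed between -0.053 and 0.032. The part of gene length or RNA quality in the member values was not tested.

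Members differed in how far they took part. Over the 12 dissections, the SD of log2 CPM among the 50 members with a mean above 4 ran from 0.144 for Rpl7l1 to 0.634 for Rps18, with a median of 0.386. The small-subunit protein gene Rps26 (0.213) and the large-subunit genes Rpl4 (0.212) and Rpl30 (0.235) varied least after Rpl7l1, and Rpl13a (0.589), Rps21 (0.587) and Rps14 (0.578) varied most after Rps18. Spearman's correlation of this SD with length across the 50 genes was -0.357, a description with no p.

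**Figure D3:**
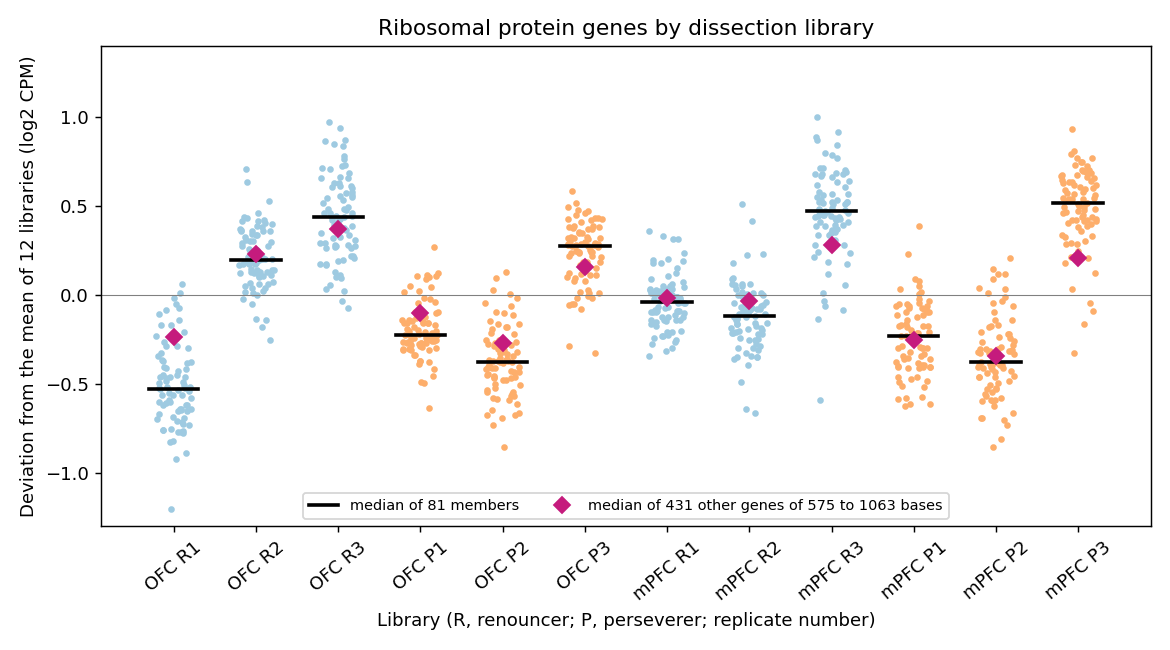
Deviation of members from their mean over 12 dissections in log2 CPM (vertical) by library (horizontal; R renouncer, P perseverer). Small points are the 81 members and black lines their median. Diamonds are the median of 431 other genes of 575 to 1063 bases with a mean log2 CPM above 4. This median has the sign of the member median in every library.

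In OFC dissections after oDASS, most members had slightly lower values in perseverers, but no member passed the test. Of the 81 tested, 72 had a log2 fold change below 0 (49.8% of all genes did), with a median of -0.205 against 0.001 for all genes and a range of -0.562 to 0.243. With edgeR's quasi-likelihood test and Benjamini-Hochberg adjustment over all genes, 0 of 81 passed an adjusted p of 0.05, as did 0 of all 14621 genes (0%). At an unadjusted p under 0.05 there were 0 members against 2.58% of all genes. DESeq2 and limma called 0 members too. Among 831 other genes of 575 to 1063 bases, 79.7% had values below 0 and the median was -0.199, close to that of the members. With the length trend of each library removed, 45 of 81 members were below 0 and the median was -0.026. Leaving out single libraries moved the median from -0.441 (without renouncer 1) to 0.0 (without renouncer 3), with -0.381 without perseverer 3 and -0.08 without perseverer 2.

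Rpl5, introduced above with its link to Mdm2, had the smallest p in the OFC. Its scaled CPM was 19.42, 21.15 and 23.35 in renouncers 1 to 3 and 19.38, 14.8 and 18.06 in perseverers 1 to 3, so every perseverer lay below every renouncer, by a margin of hundredths in the closest pair. Its log2 difference was -0.291 ± 0.179 (SE), adjusted p = 0.951. Such separation downward was seen in 3.72% of all genes, and among the members in this gene alone. Of the annotated exon bases of Rpl5, 26.7% overlap other genes. Rpl22l1 gave 38.47, 70.82 and 87.57 in renouncers and 46.33, 38.33 and 61.61 in perseverers, which overlapped (-0.428 ± 0.275, adjusted p = 0.951). Rpl6, a large-subunit gene, had a log2 difference of -0.319 ± 0.218, Rpl36a one of -0.493 ± 0.347 and Rpl7l1 one of -0.201 ± 0.144, each with adjusted p = 0.951.

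On the other side Rpl24, whose protein forms a bridge to the small subunit, was the one member separated upward (5.47% of all genes were). Its scaled CPM was 1.012, 1.001 and 1.058 in renouncers and 1.215, 1.131 and 1.3 in perseverers (0.243 ± 0.429, adjusted p = 0.971). This is also the lowest ordinary member per kilobase, and 47.0% of its annotated exon bases overlap another gene. The other 4 with values above 0 and the smallest p were nearer to 0: Rps26 (0.074 ± 0.181), Rps4l (0.070 ± 0.171), Rpl4 (0.067 ± 0.174) and Rps23 (0.062 ± 0.378), with adjusted p from 0.984 to 0.995.

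In mPFC dissections, too, most members had values below 0 and none passed the test. Below 0 were 61 of 81 members (49.6% of all genes), with a median of -0.106 against 0.003 for all genes and -0.179 for 809 other genes of 575 to 1063 bases, 79.9% of which were below 0. By edgeR 0 members and 0 of all 14375 genes (0%) passed an adjusted p of 0.05. At an unadjusted p under 0.05 there were 0 members against 4.45% of all genes, and DESeq2 and limma called 0 members. The limma median was -0.245, against -0.282 in the OFC. With the length trend of each library removed the sign of the median changed: 30 of 81 were below 0 and the median was 0.063. Leaving out single libraries moved it from -0.44 (without perseverer 3) to 0.118 (without renouncer 3), and it was 0.028 without perseverer 1 and 0.07 without perseverer 2.

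Rpl5 again had the smallest p. Its scaled CPM in the mPFC was 20.09, 18.82 and 24.85 in renouncers 1 to 3 and 14.51, 13.72 and 17.51 in perseverers 1 to 3, with no overlap (lower separation in 5.22% of all genes). Its log2 difference was -0.478 ± 0.224, unadjusted p = 0.057 and adjusted p = 0.943. Rpl10a, a large-subunit protein often tagged to isolate ribosomes, also did not overlap, with 4.916, 4.923 and 5.898 in renouncers and 3.051, 3.25 and 4.859 in perseverers (-0.492 ± 0.373, adjusted p = 0.943). Rps15a (-0.334 ± 0.212), Rps27l (-0.426 ± 0.304) and Rpl15 (-0.323 ± 0.24) overlapped and had the same adjusted p.

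Rps4x was separated upward in the mPFC, with 10.14, 9.926 and 9.988 in renouncers and 11.66, 10.98 and 12.12 in perseverers (0.210 ± 0.242, adjusted p = 0.95, upward separation in 5.68% of all genes). In the renouncers this gene varied by only 0.108 CPM (SD). Rps26 (0.149 ± 0.206), Rps2 (0.143 ± 0.238), Rps29 (0.205 ± 0.344) and Rpl24 (0.355 ± 0.699) were the other 4 with the smallest p above 0, with adjusted p from 0.96 to 0.967. The last 3 turned below 0 without perseverer 3 (-0.176, -0.076 and -0.226).

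In the imprints before oDASS the members showed no common direction. Of 60 tested, 33 were below 0 (51.9% of all genes) and the median was -0.014 against -0.026 for all genes. Leaving out single libraries gave -0.349 (without renouncer 1), 0.244 (without renouncer 2), 0.16 (without renouncer 3), -0.08 (without perseverer 1) and -0.068 (without perseverer 2). By edgeR 0 members and 0 of 10530 genes (0%) passed an adjusted p of 0.05, all with adjusted p = 1.0. At an unadjusted p under 0.05 there were 0 members against 1.72% of all genes, and DESeq2 and limma called 0 members.

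Rpl5 had the smallest p here too, but in the other direction. Its scaled CPM was 0.4433, 1.065 and 0.4258 in renouncer imprints and 1.595 and 1.85 in perseverer imprints (1.501 ± 1.163, adjusted p = 1.0). These rest on 31, 4 and 3 counts in the renouncers and 18 and 8 in the perseverers. Upward separation was seen in 3 members, as in 8.29% of all genes. Besides Rpl5 it was seen in Rpl4 (45.0, 46.6 and 48.25 against 63.25 and 55.72). Rpl22l1 was separated downward (1.859, 4.26 and 2.98 against 1.329 and 1.85), as were 8.02% of all genes. Rps4x and Rps3a1 had log2 differences of 0.789 ± 0.993 and 0.372 ± 0.531. Below 0, Rps4l had -1.555 ± 1.459, Rps27l -0.657 ± 0.623, Rpl34 -0.578 ± 0.61 and Rpl31 -0.540 ± 0.791.

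**Figure D4:**
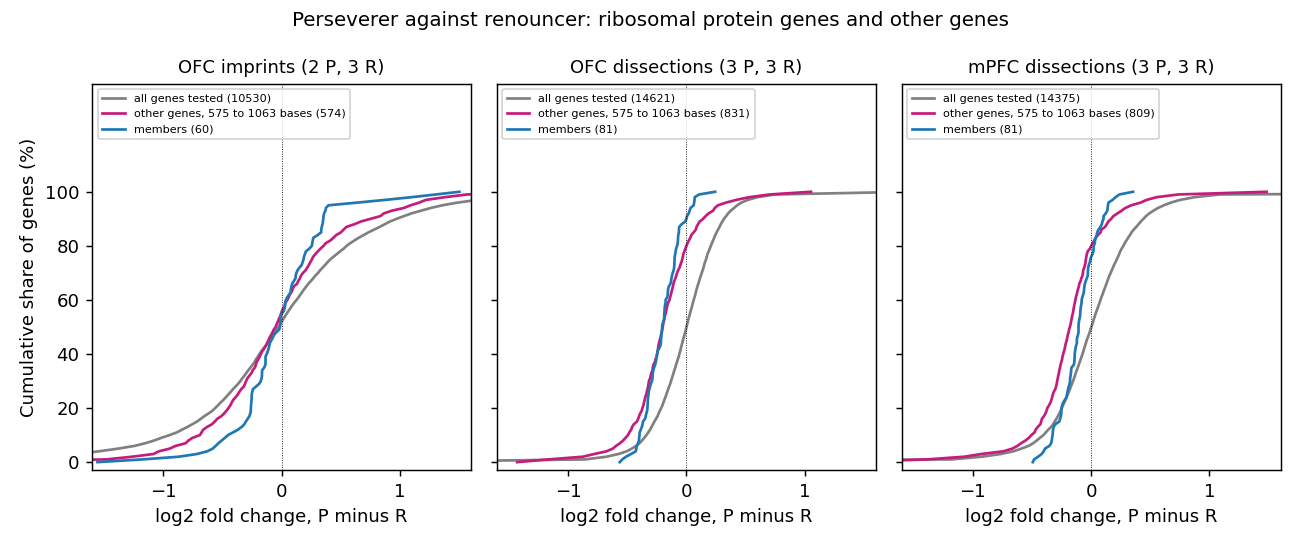
Cumulative share of genes in percent (vertical) by log2 fold change, perseverer minus renouncer (horizontal), in imprints, OFC dissections and mPFC dissections, for members, all genes tested and other genes of the middle length range of the members. In both dissected regions the middle of the member curve lies left of that of all genes and near that of the other short genes; medians of members were -0.014, -0.205 and -0.106.

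Whether the phenotype difference itself differed was tested with interaction terms. Between the dissected regions 0 of 81 members and 0 of 15025 genes (0%) passed, with 0 members against 1.5% of all genes at an unadjusted p under 0.05. DESeq2 and limma called 0 members in either interaction. Between imprints and OFC dissections 0 members and 0 of 15229 genes (0%) passed, and 2 members had an unadjusted p under 0.05 (8.77% of all genes did). These were Rpl5, with a difference of 2.005 ± 0.680 on the log2 scale (unadjusted p = 0.0105, adjusted p = 0.46), and Rps27a, with 2.634 ± 1.083 (unadjusted p = 0.0288, adjusted p = 0.541). Both are thinly covered in the imprints. Of the annotated exon bases of Rpl5, 26.7% overlap other genes, with Fam69a as the largest partner, and these unstranded libraries cannot separate them.

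Between the regions after oDASS no member passed either, in the fit without a replicate block. By edgeR 0 of 81 members were called at an adjusted p of 0.05, against 264 of 15025 genes (1.76%), and 1 member against 14.3% of all genes had an unadjusted p under 0.05. DESeq2 and limma called 0 members. Lower in the OFC were 61 of 81 members (49.7% of all genes), with a median of -0.092 against 0.002 for all genes and 0.055 for 867 other genes of 575 to 1063 bases, 39.1% of which were lower. Unlike the phenotype comparisons, the members here lay on the other side of 0 from the short genes. With limma's quality weights the median turned to 0.029, and over the leave-outs it ran from -0.175 to 0.067. It was above 0 without OFC renouncer 1 (0.011), mPFC renouncer 3 (0.016) or mPFC perseverer 3 (0.067). The regions also differed in summed CPM of 5 oligodendrocyte markers, which was 4880 at the lowest, 10600 at the median and 14300 at the highest OFC dissection, against 1850, 3960 and 6790 in the mPFC. The part of these cells in the member values was not tested.

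The member with the unadjusted p under 0.05 was Rps2, a small-subunit protein at the mRNA entry channel. Its scaled CPM was 39.35, 67.1 and 68.35 in OFC renouncers 1 to 3, 54.1, 52.49 and 73.12 in OFC perseverers, 68.06, 69.01 and 87.5 in mPFC renouncers, and 67.01, 65.22 and 115.6 in mPFC perseverers. The regions overlapped, but the OFC library was the lower one in 6 of the 6 pairs of the same phenotype and replicate number, as in 6.64% of all genes. The labels do not say that such pairs share a mouse. Means were 59.1 ± 12.7 in the OFC and 78.7 ± 19.8 in the mPFC (-0.414 ± 0.172, unadjusted p = 0.029, adjusted p = 0.273). This gene passed with the length trend of each library removed (-0.447, adjusted p = 0.031) and with the replicate number as a block (-0.413, adjusted p = 0.0204). Rpl29 (-0.266 ± 0.142), Rps4x (-0.229 ± 0.144), Rps4l (-0.229 ± 0.148) and Rpl8 (-0.206 ± 0.137) came next among the lower ones. Among the higher ones, Rpl21 had 0.281 ± 0.21, Rpl10a 0.247 ± 0.222, Rps27l 0.229 ± 0.254, Rpl5 0.116 ± 0.13 and Rpl36a 0.158 ± 0.271.

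Imprints and OFC dissections differed in many members. By edgeR 28 of 81 passed an adjusted p of 0.05, 26 higher and 2 lower in the imprints. That is 32.1% higher against 15.6% of all 15229 genes and 19.3% of 903 other genes of 575 to 1063 bases, and 2.47% lower against 17.9% and 10.6%. Of the 81, 62 had a value above 0 (44% of all genes), with a median of 0.567 against -0.160 for all genes. With TMM scaling the family thus lay above 0, but scaled by library totals outside haemoglobin alone its median was -0.132 (all genes -0.799), and by library totals alone, haemoglobin included, it was -2.424 (all genes -2.821). Relative to the median of all genes it stayed higher, by 0.397 to 1.049, in the settings run. By edgeR with library totals outside haemoglobin alone 11 of 84 members were called, 6 higher and 5 lower, against 40.1% of all genes in either direction. The differences named next are from the TMM fit.

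The samples differ in their cells as well. Summed CPM of 11 red cell markers was 302000 at the lowest, 912000 at the median and 927000 at the highest imprint, against 325, 692 and 875 in OFC dissections, where 1 of the 11 (Epb42) was at 0. The sums that follow are CPM of counts outside the haemoglobin genes, another scale than that of the red cell markers. Haemoglobin genes held 29.7% to 90.7% of imprint counts, so as CPM of all counts the imprint sums would be lower. For 5 lymphocyte markers the sum was 129, 458 and 1690 against 0.621, 0.694 and 0.819 (Ms4a1 at 0 in the dissections). For 5 neutrophil markers it was 335, 1600 and 3540 against 0.958, 1.37 and 2.46, and for 5 platelet markers 1550, 2580 and 4400 against 171, 197 and 226. For 4 pan-neuronal markers (Snap25, Syt1, Rbfox3 and Stmn2) the sum was 412, 1060 and 2290 against 4520, 6030 and 7040, so neuronal signal was lower in the imprints. Median sums of excitatory neuron, inhibitory neuron and astrocyte markers were lower too. On this scale the sums of 5 oligodendrocyte markers overlapped widely, with 1630, 6100 and 17800 against 4880, 10600 and 14300. For 5 microglia markers the median on this scale was higher in the imprints, with 332, 537 and 776 against 364, 429 and 560. Neither of these sets was compared as CPM of all counts, where the imprint sums would be lower. In bulk samples fewer cells of a type and less RNA per cell cannot be told apart. The part of blood cells in the member values was not tested.

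All 3 stalk genes were higher in the imprints. Rplp0, the base of the stalk, had 60.58, 445 and 306.5 scaled CPM in renouncer imprints 1 to 3 and 220.8 and 378.6 in perseverer imprints, against 36.7, 49.6 and 67.4 (lowest, median, highest) in the 6 dissections. Its log2 difference was 2.498 ± 0.373 (282 ± 149 against 49.7 ± 11.5, adjusted p = 7.92e-05). Rplp2 had 27.87, 143.2 and 108.3 in renouncer and 98.81 and 94.44 in perseverer imprints, against 19.8, 27.0 and 35.8 (1.779 ± 0.319, adjusted p = 0.000421). Rplp1 had 1.396 ± 0.287 (adjusted p = 0.00131). Its values were 61.21, 165.3 and 213.4 in renouncer and 118.2 and 147.3 in perseverer imprints, against 35.59 to 69.33 in the dissections. In all 3 the library that lay lowest among the imprints, renouncer 1, lay within the range of the dissections.

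Of the large subunit, 34 of 48 tested members (stalk included) had values above 0, with a median of 0.522, 14 called higher and 1 lower. Rpl41 had 60.79, 505.6 and 399.6 in renouncer and 299.8 and 366.5 in perseverer imprints, against 37.1, 64.2 and 101.0 (2.337 ± 0.422, adjusted p = 0.000508). Rpl37a (1.673 ± 0.302, adjusted p = 0.000453) was higher as well. So were Rpl39, which lines the exit tunnel (1.623 ± 0.38, adjusted p = 0.00356), and Rpl4, also a tunnel protein (0.567 ± 0.185, adjusted p = 0.0266). With library totals outside haemoglobin alone the value of Rpl4 was on the other side of 0, at -0.162 (adjusted p = 0.717). Not past the threshold were Rpl38, known for its role in Hox mRNA translation (0.805 ± 0.308, adjusted p = 0.054), Rpl13a (0.732 ± 0.28, adjusted p = 0.0544), Rpl22 (0.393 ± 0.244) and Rpl10 (1.5 ± 0.857). Nor were Rpl3, at the peptidyl transferase centre (0.113 ± 0.307), Rpl11 (-0.098 ± 0.737), Rpl5 (-0.839 ± 0.434) and Rpl19 (-1.027 ± 0.485).

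Of the small subunit, 28 of 33 tested members had values above 0, with a median of 0.786, 12 called higher and 1 lower. Rps9, which helps to keep decoding accurate, had 60.05, 263.4 and 245.5 in renouncer and 203.1 and 191.5 in perseverer imprints, against 35.6, 53.2 and 79.5 in the dissections (1.803 ± 0.327, adjusted p = 0.000466). Rps2 did not overlap, with 25.55, 95.16 and 68.59 in renouncer and 53.15 and 60.65 in perseverer imprints against 13.35 to 23.03 (1.614 ± 0.289, adjusted p = 0.000413). Rps19 (1.335 ± 0.289, adjusted p = 0.00198) and Rps24 (0.88 ± 0.318, adjusted p = 0.0423), both genes mutated in Diamond-Blackfan anaemia, were higher. So was Rpsa (1.018 ± 0.379, adjusted p = 0.0481). Rps18 (0.985 ± 0.396), Rps4x (0.848 ± 0.403), Rps3 at the mRNA entry channel (0.45 ± 0.272), Rps6 (0.121 ± 0.446), Rps12 (-0.403 ± 0.654) and Rps27a (-1.302 ± 0.656) did not pass.

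The 2 members called lower in the imprints were Rpl22l1 and Rps23. Rpl22l1 had 6.848, 15.38 and 11.43 in renouncer and 5.111 and 6.931 in perseverer imprints, against 12.8, 17.6 and 29.5 in the dissections, with some overlap (-1.220 ± 0.322, adjusted p = 0.00797). Its parent Rpl22 had a value on the other side of 0, which is the lower paralog ratio described above. Rps23, a protein of the decoding centre, was near 0 in the imprints, with 0.3687, 0 and 0.5444 in renouncers and 0 and 0.8664 in perseverers, against 0.715, 1.27 and 1.87 (-1.926 ± 0.7, adjusted p = 0.0434).

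No overlap between imprints and dissections was seen in 6 members, all higher in the imprints (8.52% of all genes were), and in 0 lower (15.7%). Among them were Rps2, Rpl8, Rps26, Rps20 and Rpl4. Few-copy members were called higher in 10 of 22 (45.5%) and many-copy members in 16 of 59 (27.1%), against 15.6% of all genes. Few-copy ordinary genes also had the higher median level, and the part of depth in these shares was not tested. Renouncer imprint 1 had the least haemoglobin and the most pan-neuronal marker signal of the imprints (2290 CPM of counts outside haemoglobin). Without this library 45 of 81 were called, 44 of them higher, and 36.4% of all genes were called in either direction. Of 23 alternatives, Rpl41, Rplp0, Rplp2 and Rps9 were called higher in 22 each, the exception being library totals alone. Other calls held in fewer: Rps24 was called higher in 12 of 23, Rpl4 in 14 of 23 and Rpsa in 7 of 22. With library totals outside haemoglobin alone Rps24 had 0.019 (adjusted p = 0.969) and Rpsa 0.241 (adjusted p = 0.685). Rpl22l1 was called lower in 21 of 22 and Rps23 in 10 of 22.

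**Figure D5:**
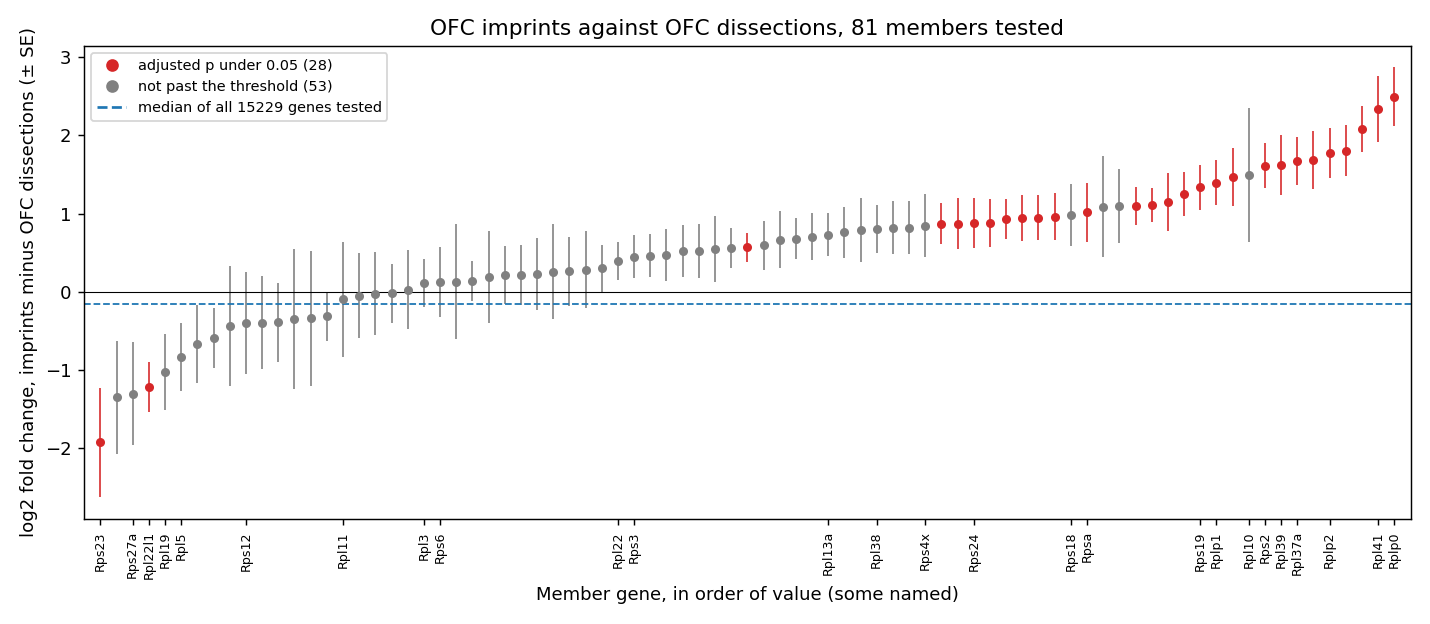
Log2 fold change of imprints against OFC dissections with bars of 1 SE (vertical) for the 81 members tested (horizontal, in order of value, with some of them named). Red points mark the 28 with an adjusted p under 0.05, 26 above and 2 below 0, and the dashed line the median of all 15229 genes tested, -0.160.

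The other genes of the machinery were counted by list in the same fits. Of 4 ribosomal protein genes outside the naming rule, 1 was called higher and 0 lower between imprints and dissections. Rack1, a scaffold on the small subunit, had 0.653 ± 0.271 (adjusted p = 0.0743). Of 26 translation factors and other genes with TOP mRNAs, 8 were called higher and 4 lower (median 0.077). Pabpc1, the cytoplasmic poly(A)-binding protein, had 1340 ± 1040 scaled CPM in the imprints against 11.7 ± 2.23 in the dissections (6.848 ± 0.666, adjusted p = 3.24e-06). Eif4a2, a form of the eIF4A helicase abundant in brain, was called lower, with -2.234 ± 0.271 (adjusted p = 1.04e-05). Of 16 genes of mTORC1 and LARP1 control, 2 were called higher and 4 lower (median -0.366). Eif4ebp1, which holds back eIF4E, had 3.791 ± 0.291 (adjusted p = 9.86e-08) and Rheb, the activator of mTORC1, -1.461 ± 0.195 (adjusted p = 2.68e-05).

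Of 25 ribosome biogenesis genes, 1 was called higher and 2 lower (median -0.177). Utp14a had 1.623 ± 0.387 (adjusted p = 0.00402) and Nip7 -1.653 ± 0.358 (adjusted p = 0.00199). Of 8 genes of ribosome quality control and the p53 link, Trp53 was called higher (1.817 ± 0.383, adjusted p = 0.00162) and Mdm2 lower (-0.796 ± 0.287, adjusted p = 0.0423), with a median of -0.286. The shares of all genes called, 15.6% higher and 17.9% lower, stand beside these counts.

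The mitochondrial ribosomal protein genes, which build the separate ribosome of mitochondria and are also short, had mostly lower values in the imprints than in the dissections. Of 78, 61 had values below 0 (56% of all genes), with a median of -0.331 (-0.171 relative to that of all genes), 1 called higher and 19 lower, against 15.6% and 17.9% of all genes. The median stayed below 0 in the settings run, at most -0.081 with the length trend of each library removed, but relative to all genes it turned to 0.053 without renouncer imprint 1. The 19 lower calls became 7 without OFC renouncer 3, 9 with the replicate number as a block and 6 with limma, and 45 with library totals outside haemoglobin alone. Mrpl41 had -1.290 ± 0.253 (adjusted p = 0.000906) and Mrpl46 -1.367 ± 0.285 (adjusted p = 0.00149). In the phenotype comparisons 73 of 78 were below 0 in the OFC (median -0.227, 49.8% of all genes below 0) and 71 of 78 in the mPFC (median -0.175, 49.6% of all genes), with 0 called by edgeR in either. With the length trend of each library removed, 58 of 78 were below 0 in the OFC (median -0.106, against -0.026 for the cytosolic genes) and 51 of 78 in the mPFC (median -0.083, against 0.063). In these 2 comparisons, in the imprints and between the regions, edgeR called 0 genes of any of the 6 lists. Between the regions DESeq2 and limma each called 1 mitochondrial ribosomal protein gene, higher in the OFC.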

How the data were processed

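Bulk RNA of 17 mouse brain libraries was measured with SMART-Seq v4 and Nextera kits, which do not keep the strand, after Qiagen micro kit extraction, per the labels' protocols. The 3 tables deposited by the authors, 1 per tissue and stage, give raw counts and a length in bases for each gene. FastQC 0.11.8 and mm10 are named in the submitters' processing notes. Which aligner, counter and annotation were used is not given in the sources used here. The deposited length was used as given.

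Counts were analysed with edgeR 4.0.16 in R 4.3.3: filterByExpr, TMM scaling, robust quasi-likelihood fits over the whole table, two-sided tests, and Benjamini-Hochberg adjusted p over all genes with a threshold of 0.05. Fold changes are log2, perseverer minus renouncer, OFC minus mPFC or imprint minus dissection, the last 2 with phenotype as a term. Interactions contrast the means of 4 groups. The SE, fold change over the square root of F, is approximate. Scaled CPM uses TMM within 1 fit and compares levels only within that fit. CPM per kilobase uses the library total. Marker sums use counts outside haemoglobin, except those of red cell markers, which use all counts. Alternatives were RLE and upper-quartile scaling, DESeq2 1.42.0, limma voom 3.58.1 with quality weights, no or a stricter filter (10 counts in every library), a threshold of 0.1, the replicate number as a block, each library left out, the length trend of each library removed, haemoglobin genes removed, and rows with identical counts removed. Chosen after seeing the data were scaling by library totals with or without haemoglobin and few-copy members only. The fits were tested on simulated data.

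The members and lists were chosen with earlier results of these data known. Named were, per comparison, the 5 members with the smallest p in each direction, in imprints against dissections also members with known roles, the paralogs (Rpl32l was added after seeing the data), the 5 highest and lowest by level, and up to 2 genes of each list. A few genes that these rules take are not reported here. Genes outside these rules were named for non-overlap, spread or role after their values were seen. In 11 members at least 20% of the exon bases overlap another gene. Nothing says whether replicates come from separate mice, so p-values measure only the spread between these libraries. The number of libraries, 2 or 3 a group, limits every phenotype comparison.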

Additional observations from a re-analysis of the deposited data

How the results depend on the processing

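The call counts of 0 members in the 3 phenotype comparisons and both interactions were 0 in every alternative run. Between regions 1 member (Rps2) was called with the replicate block, when 1130 genes were, and 1 (Rps2) with the length trend removed. Between imprints and dissections the 28 calls (33.5% of all genes were called) became 43 with DESeq2 (41 higher, 39.5% of all genes called) and 18 with limma (18 higher, 28.2%). They became 56 of 81 with library totals alone (all lower, median -2.424, 68.9% of all genes). With library totals outside haemoglobin they became 11 of 84 (6 higher, median -0.132, 40.1%). Among few-copy members they were 11 of 22, in the fit that called 33.5% of all genes. When single libraries were left out the calls ranged from 21 to 45, the latter without renouncer imprint 1, when 5488 genes were called. The median ranged from 0.493 to 0.861. Leave-out ranges of the medians were -0.349 to 0.244 in imprints, -0.441 to 0.0 in the OFC, -0.44 to 0.118 in the mPFC and -0.175 to 0.067 between regions. The imprint median was -1.091 with library totals alone. Member shares of counts outside haemoglobin were 0.559% in renouncer and 0.597% in perseverer imprints, against 0.149% and 0.0767% of all counts. Except where fewer genes or samples entered, the cause of these shifts was not tested.

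Several single genes changed sign. Between imprints and dissections with library totals alone the log2 values were Rplp0 -1.18, Rps2 -1.686, Rplp2 -1.662, Rpl37a -1.659, Rplp1 -1.9, Rpsa -2.019, Rps3 -2.691, Rps6 -2.55, Rps18 -2.423, Rps19 -1.927, Rps24 -2.307, Rps4x -1.876, Rpl3 -2.647, Rpl10 -2.041, Rpl13a -2.303, Rpl22 -2.465, Rpl38 -2.379, Rpl39 -1.853, Rpl41 -1.347, Rack1 -2.299, Trp53 -1.51 and Utp14a -0.953. With totals outside haemoglobin they were Rps3 -0.411, Rps6 -0.553, Rpl3 -0.573, Rpl13a -0.068, Rpl22 -0.371, Rpl38 -0.012, Rpl4 -0.162 and Rack1 -0.114. Rpl11 was 0.033 with RLE, 0.06 with DESeq2 and 0.173 with the length trend removed. In the imprints, library totals alone gave Rps4x -0.654, Rps3a1 -0.941 and Rpl4 -1.33, and the block gave Rpl31 0.158. With limma, Rps26 was -0.041 and Rpl4 -0.013 in the OFC, and Rps2 -0.054 and Rpl24 -0.258 in the mPFC.

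Leave-outs crossed 0 in the OFC for Rps26 (-0.051 to 0.169), Rpl4 (-0.066 to 0.149) and Rps23 (-0.239 to 0.43), in the mPFC for Rps2 (-0.176 to 0.287), Rps29 (-0.076 to 0.48) and Rpl24 (-0.226 to 0.651), and between regions for Rpl36a (-0.031 to 0.353). Between imprints and dissections they did for Rpl11 (-1.267 to 0.471), Rps6 (-0.072 to 0.309), Rpl10 (-0.037 to 2.119) and Rpl3 (-0.253 to 0.344).

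Whether replicate numbers pair libraries was checked by correlating deviations from the group means. Between regions the 6 same-numbered pairs gave 0.126, 0.0222, 0.119, 0.106, 0.305 and 0.361. Differently numbered pairs of the same phenotype ran from -0.329 to 0.0953, so all but 1 of the same-numbered pairs lay above them. As 1 lay under 0.1, the numbers were not taken as pairs in the fits without a block. The check does not settle whether the numbers pair libraries. The column codes of same-numbered libraries follow one another, but the labels do not say what the codes mean. With the replicate block 31 members were called between imprints and dissections and 0 in the phenotype comparisons and interactions. Depth limits the imprints, where the median member had 10 to 135 counts.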
